A study of Mus musculus with 38 samples.

Results

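Messenger RNA of 10 mouse genes that carry or bind zinc was followed in intestinal epithelium after an injection of the vitamin D hormone. The genes are 5 exporters of the Slc30 family (Slc30a1, Slc30a2, Slc30a4, Slc30a5 and Slc30a7), 3 importers of the Slc39 family (Slc39a1, Slc39a4 and Slc39a5) and the metallothioneins Mt1 and Mt2. They were taken by symbol, and all 10 were found among the 21441 genes of each of 3 RNA-seq tables, for villi, crypts and colon. The genes were picked by family, with earlier results of these data known, and all 10 are described whatever their test. They are only part of their families, and 20 other genes of these families and of zinc sensing are described apart.

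Every mouse was wild type, C57BL6/J and vitamin D deficient, controls included, so the comparison is that of a single hormone dose with its vehicle in deficient animals. The vitamin D groups received the active hormone 1,25(OH)2D3 by intraperitoneal injection at 10 ng per g of body weight, and the vehicle groups received 0.1 ml of propylene glycol and ethanol; all were killed after 4 h. The 38 libraries comprise 7 vitamin D and 6 vehicle libraries from villi, 6 vitamin D and 6 vehicle libraries from crypts, and 7 vitamin D and 6 vehicle libraries from colon. The sample characteristics give an age of 10 to 13.3 weeks and call the mice pooled males and females; the treatment protocol gives a partly different age range. Villi and crypts came from the proximal small intestine, released by EDTA and separated by size over a filter, whereas the colon epithelium was scraped from the muscle layer. How many mice stand behind a library, and whether libraries of different tissues share mice, the sources used here do not give; the p-values therefore speak of the spread among these libraries alone, which may be technical.

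Dietary zinc enters the enterocyte across its apical membrane through Slc39 (ZIP) proteins, which move zinc into the cytosol, and leaves across the basolateral membrane through Slc30 (ZnT) proteins, which move zinc out of the cytosol to the outside or into vesicles and the Golgi. Metallothioneins are small cysteine-rich proteins that hold zinc in the cytosol. The transcription factor MTF-1 senses free zinc and binds metal response elements in the promoters of metallothionein genes and of Slc30a1, and glucocorticoids also raise metallothionein transcription. The 1,25(OH)2D3 receptor is best known in this tissue for its calcium genes.

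The promoters of the gene that responded most among the exporters and of both metallothioneins are shown. They carry matches to the core of the metal response element, but so do promoters not shown, such as those of Slc30a4 and Slc30a2. Whether a match bears on the response was not tested. Promoters of 9 of the 10 genes were matched in RefSeq (GRCm38.p6), each 250 bases before and 50 after the transcription start as that table gives it. The element's core was searched as TGCACNC and TGCGCNC on both strands. The sequences run 5′ to 3′ on the gene's strand, and capitals mark each match, read as its complement where the match lies on the other strand. Slc30a1 covers chr1:191906531-191906830, Mt1 covers chr8:94178839-94179138 and Mt2 covers chr8:94172368-94172667, all on the plus strand.
Slc30a1: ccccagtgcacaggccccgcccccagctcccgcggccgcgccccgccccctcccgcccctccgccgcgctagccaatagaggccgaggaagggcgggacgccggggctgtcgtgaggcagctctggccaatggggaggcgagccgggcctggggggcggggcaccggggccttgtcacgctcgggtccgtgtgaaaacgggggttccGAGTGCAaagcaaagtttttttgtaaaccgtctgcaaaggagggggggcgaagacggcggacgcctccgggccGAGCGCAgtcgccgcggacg
Mt1: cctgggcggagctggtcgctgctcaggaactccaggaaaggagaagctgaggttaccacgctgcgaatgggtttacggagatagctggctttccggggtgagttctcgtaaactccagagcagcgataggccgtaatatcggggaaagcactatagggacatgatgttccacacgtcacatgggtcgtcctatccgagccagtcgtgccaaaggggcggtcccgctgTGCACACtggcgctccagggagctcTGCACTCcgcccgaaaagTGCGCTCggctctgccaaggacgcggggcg
Mt2: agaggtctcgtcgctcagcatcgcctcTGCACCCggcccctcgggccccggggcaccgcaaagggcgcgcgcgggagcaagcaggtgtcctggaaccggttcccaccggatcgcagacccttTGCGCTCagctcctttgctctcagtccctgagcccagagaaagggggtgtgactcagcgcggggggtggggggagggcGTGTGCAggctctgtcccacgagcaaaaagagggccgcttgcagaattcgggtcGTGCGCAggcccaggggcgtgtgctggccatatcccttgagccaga
Mt2 held 4 matches, Mt1 and Slc30a4 held 3 each, Slc30a1 and Slc30a2 held 2 each, and Slc30a5 held 1. Of the pair of starts listed for Slc39a5, the first held 1 match and the second 0, and Slc30a7 and Slc39a1 held 0. Across all 32851 promoters of the table, 25.7% held at least 1 match, 7.11% held 2 or more and 1.97% held 3 or more. The DR3 direct repeat, to which the vitamin D receptor binds, was found in 0.0396% of all promoters and in 0 of the 9 matched genes. At so low a share 0 is the likely outcome for any 9 genes, so it does not show that these lack receptor sites. Sequence outside the 300 bases was not searched. Mt1 and Mt2 are next to each other on chromosome 8, with Mt3 before Mt2 and Nup93 after Mt1.

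The libraries held an estimated 13.8 M to 17.5 M reads (median 15.8 M). The values are FPKM, which adjust fragment numbers for the length of the transcript and the size of the library. Differences are log2 fold changes of vitamin D over vehicle, computed on log2(FPKM + 0.5) and given ± their standard error; on this scale the changes of low genes are understated. A gene was called where its limma p-value, Benjamini-Hochberg adjusted across every gene that entered the test in that tissue, was under 0.05. The treatment marked every vitamin D library: Cyp24a1, the hydroxylase that inactivates the hormone, rose by 10.53 in villi, 11.37 in crypts and 9.10 in colon, and the calcium pump gene Atp2b1 by 1.33, 1.56 and 1.50. Vehicle replicate 6 held 62.2 FPKM of Cyp24a1 in villi and 64.7 in colon, against at most 1.33 and 5.38 in the other vehicle libraries there. Vitamin D colon replicate 7 held 403 FPKM, the lowest of its group. Vehicle colon replicate 6 also held the highest Atp2b1 (86.2 FPKM), Slc30a1 (15.9) and Slc39a4 (223) of its group. The summed FPKM of absorptive enterocyte markers was 40923 to 70895 in villi, that of Paneth cell markers 12153 to 31096 in crypts, and that of colonocyte markers 5049 to 15687 in colon, so the tissues carried the markers of their labels. Vehicle crypts replicate 6, which had the lowest Paneth sum, also held 57128 FPKM of enterocyte markers, inside the villus range. Pancreatic acinar markers summed to at most 0.583 FPKM in villi, 8.07 in crypts and 3.07 in colon. The colon libraries labelled vitamin D replicate 2 and vehicle replicate 5 stood apart: 289 and 91 genes of 5 FPKM or more lay over 2-fold above every other colon library in them, against 0 to 7 in the others. Vitamin D replicate 2 had a summed FPKM of 4021 over the muscle and fibroblast markers Acta2, Myh11, Des, Col1a1 and Col3a1, against 3.90 to 1326 in the other 12 colon libraries. Vehicle replicate 5 had the highest enterocyte and Paneth marker sums of its group, 3851 and 2547 FPKM. In bulk tissue fewer cells of a type and less RNA per cell cannot be told apart.

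In the vehicle libraries of villi the importers and metallothioneins averaged above every exporter. FPKM is per transcript length, so these levels can be set against each other. Mt1 averaged 299 ± 112 FPKM (SD, n = 6), Slc39a4 143 ± 19.1 and Slc39a5 110 ± 9.88, and Slc39a4 stood at percentile 93.5 of the 9675 genes with a mean of at least 1 FPKM. Mt2 averaged 83.3 ± 42.6, Slc39a1 56.4 ± 3.86 and Slc30a5 51.0 ± 3.85. Slc30a4 averaged 33.2 ± 22.9, Slc30a2 20.9 ± 12.3, Slc30a1 7.22 ± 1.08 and Slc30a7 5.01 ± 0.513. Mt2 did not stand apart from its neighbours in this order beyond its spread, and Slc30a4 did not stand apart from Slc30a2.

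**Figure D1:**
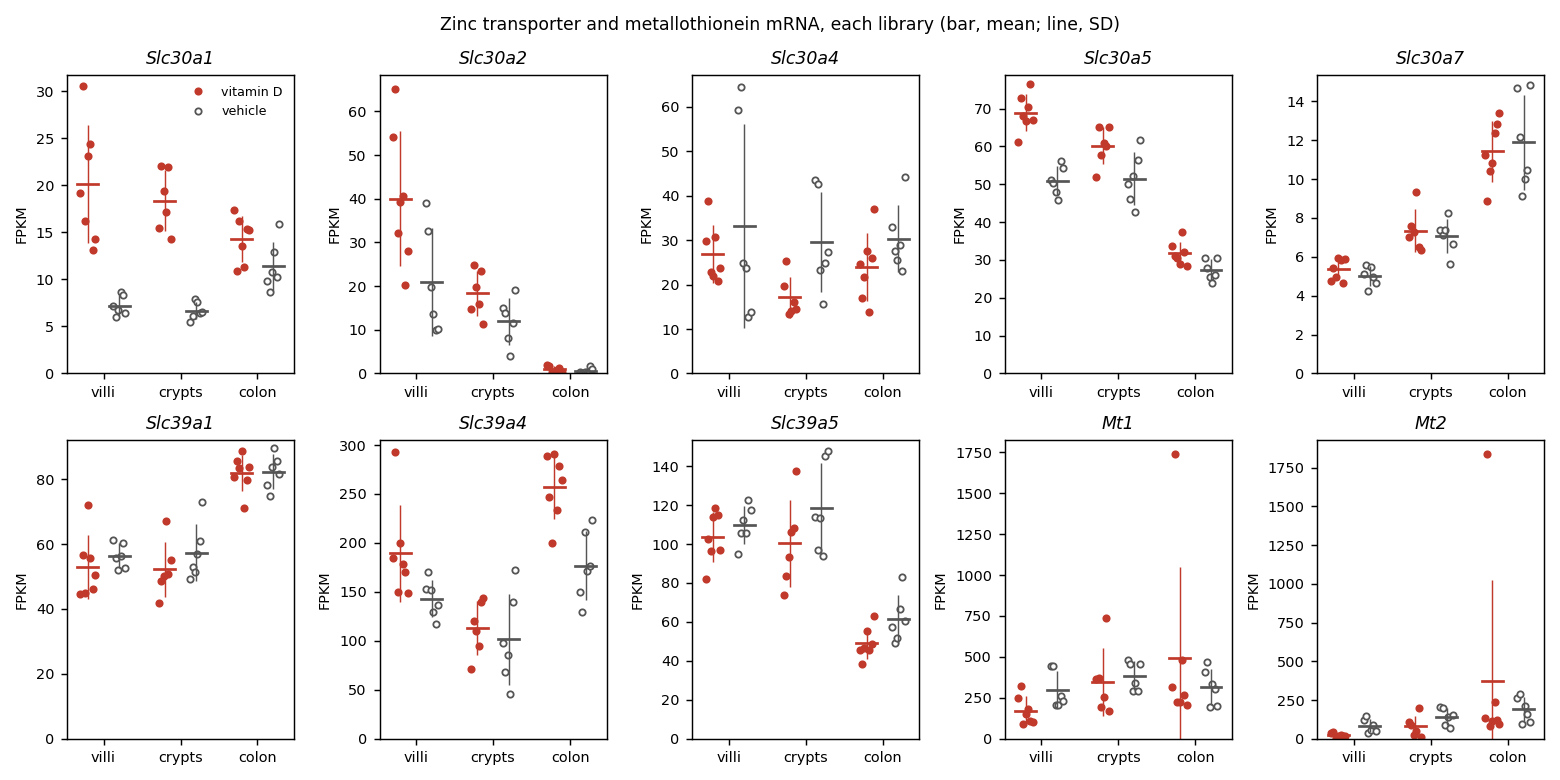
FPKM of the 10 genes in each library of villi, crypts and colon, vitamin D (filled) left of vehicle (open); bars are means, vertical lines SD (not drawn below 0), and each panel has its own linear axis from 0. For Slc30a1 the vitamin D libraries of villi (13.1 to 30.5 FPKM) and of crypts (14.3 to 22.0) all lie above the vehicle libraries (at most 8.70 and 7.93), and in colon vitamin D replicate 2 carries 1739 FPKM of Mt1 and 1838 of Mt2.

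Among the exporters Slc30a1 rose in villi and crypts and Slc30a5 rose in villi, and neither was called in colon. In villi 2 of the 5 exporters were called higher, against 2.17% of all 9706 genes tested, and 0 lower. In crypts 1 of 5 was called higher, against 1.13% of 10733 genes, and 0 lower, against 0.335% of all genes, with Slc30a4 at an unadjusted p under 0.05. In colon 0 of the 4 tested exporters were called by limma, against 0.763% higher and 0.0607% lower of 11540 genes, and Slc30a1 and Slc30a5 had an unadjusted p under 0.05. The median exporter log2 fold change was 0.43 in villi, 0.23 in crypts and 0.08 in colon, beside -0.01, -0.01 and 0.00 over all genes tested.

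Slc30a1 encodes ZnT1, the exporter of the plasma membrane that passes zinc from the enterocyte towards the blood. In villi it had a lowest value of 13.1, a median of 19.2 and a highest of 30.5 FPKM in the vitamin D libraries, against 6.00, 6.94 and 8.70 in the vehicle libraries. The groups did not overlap, a pattern that 1.75% of all genes tested in villi showed in this direction. The means were 20.1 ± 6.26 FPKM with vitamin D (SD, n = 7) and 7.22 ± 1.08 with vehicle (n = 6), a 2.59-fold rise (95% interval 1.98 to 3.38; log2 1.37 ± 0.18; limma adjusted p = 0.000589). In crypts the lowest, median and highest values were 14.3, 18.3 and 22.0 FPKM with vitamin D, against 5.45, 6.46 and 7.93 with vehicle. These groups did not overlap either, as for 1.23% of all genes there, and the rise was 2.62-fold (2.17 to 3.16; log2 1.39 ± 0.13; limma adjusted p = 6.4e-05). In colon the vitamin D libraries ran over 10.9, 15.3 and 17.4 FPKM and the vehicle libraries over 8.64, 10.5 and 15.9. Of 7 vitamin D colon libraries 2 lay above every vehicle library, and the log2 fold change of 0.32 ± 0.15 did not pass (limma adjusted p = 0.589).

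The response of Slc30a1 in colon was smaller than in either part of the small intestine. The log2 fold change in villi exceeded that in colon by 1.05 ± 0.22 (limma adjusted p = 0.0144), a comparison in which 0.467% of 11990 genes passed. The log2 fold change in crypts exceeded that in colon by 1.06 ± 0.23 (limma adjusted p = 0.0293), where 0.158% passed. Villi and crypts differed by -0.02 ± 0.23 (limma adjusted p = 0.998; 0.0667% of genes passed). Among the other 9 genes, 0 passed in any of the 3 pairs of tissues, with an unadjusted p under 0.05 for Mt1 and Mt2 between villi and colon. Vehicle colon replicate 6 held the highest Slc30a1 of its group. Without it the limma adjusted p for Slc30a1 was 0.0363 for villi and colon and 0.0809 for crypts and colon. The labels write the sample names of 4 libraries of each group in a plain style and the rest in other styles. In these plain-named libraries alone, 4 against 4 in each tissue, the villi and colon difference was 1.11 (adjusted p = 0.0725) and the crypts and colon difference 0.95 (adjusted p = 0.210), and the call for crypts and colon was also lost on leaving out any 1 of 12 libraries, at most to an adjusted p of 0.0821 without vitamin D crypts replicate 2.

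**Figure D2:**
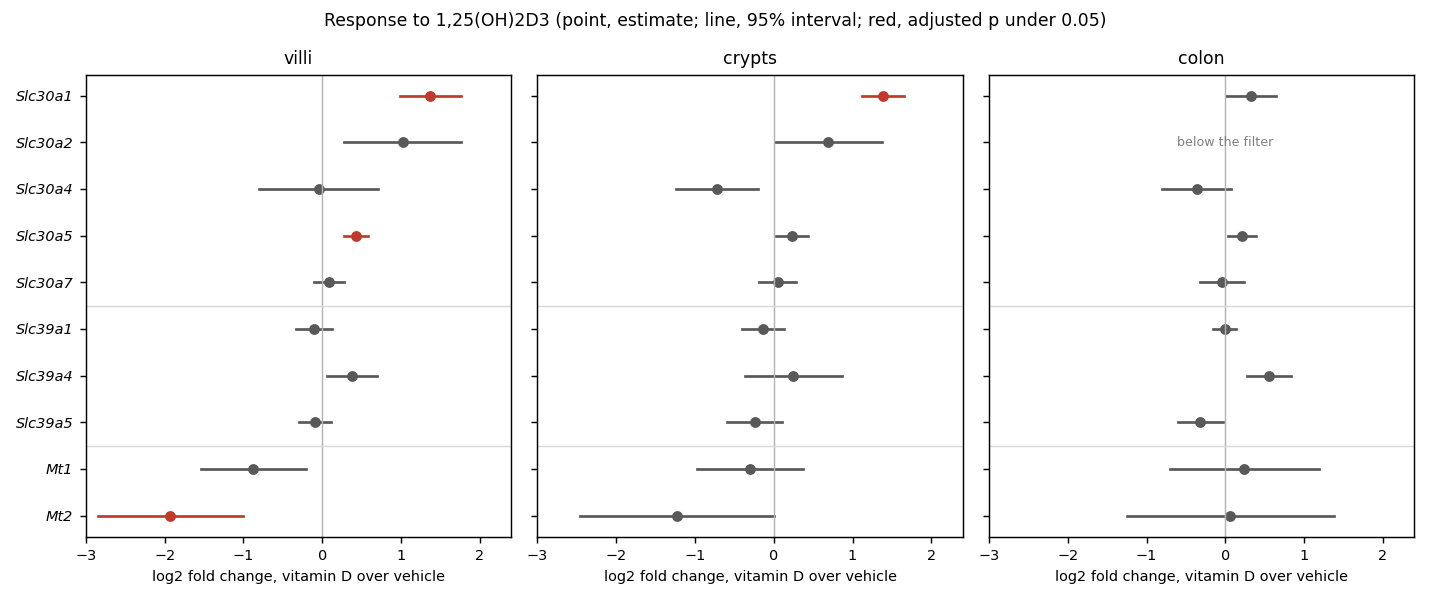
Log2 fold change of vitamin D over vehicle for each of the 10 genes in villi, crypts and colon (points, limma estimates on log2(FPKM + 0.5); lines, 95% intervals; red, adjusted p under 0.05; grey, not called). Slc30a1 stands at 1.37 in villi and 1.39 in crypts against 0.32 in colon, Slc30a5 is called in villi alone of the tissues, and Mt2 is called in villi at -1.93 with the widest interval there.

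Slc30a5 encodes ZnT5, which loads zinc into the early secretory pathway. Its villus libraries held 61.1 FPKM at the lowest, 68.0 at the median and 76.4 at the highest with vitamin D, against 45.8, 50.7 and 56.2 with vehicle, with no overlap. The rise was 1.35-fold (95% interval 1.21 to 1.50; log2 0.43 ± 0.07; limma adjusted p = 0.00401). In crypts the means were 60.2 ± 4.99 and 51.5 ± 6.89 FPKM for vitamin D and vehicle (SD, n = 6 each; log2 0.23 ± 0.10; limma adjusted p = 0.284). In colon they were 31.8 ± 3.10 FPKM with vitamin D (n = 7) and 27.4 ± 2.77 with vehicle (n = 6; log2 0.21 ± 0.09; limma adjusted p = 0.492). The villus difference exceeded that of colon by 0.22 ± 0.11 and that of crypts by 0.20 ± 0.11 (limma adjusted p = 0.615 and 0.792), so a different response of Slc30a5 between tissues was not shown. Within the plain-named villus libraries the log2 fold change was 0.45 and its adjusted p was 0.0502.

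Slc30a2 encodes ZnT2, a vesicular transporter of secretory cells. In villi it ran over 20.2, 39.3 and 65.2 FPKM (lowest, median, highest) with vitamin D, against 9.93, 16.7 and 39.1 with vehicle. The groups overlapped, though 4 of 7 vitamin D libraries exceeded all vehicle libraries, and the log2 fold change of 1.03 ± 0.35 did not pass (limma adjusted p = 0.192). Blocking on the replicate number gave a call (1.09, adjusted p = 0.0212). Vitamin D replicates 1 and 2 were the highest of their group at 54.2 and 65.2 FPKM, and vehicle replicates 1 and 2 the highest of theirs at 39.1 and 32.7. In crypts the means were 18.4 ± 5.18 with vitamin D and 11.9 ± 5.31 FPKM with vehicle (SD, n = 6 each; log2 0.69 ± 0.31; limma adjusted p = 0.315). In colon Slc30a2 lay between 0 and 1.83 FPKM with vitamin D and between 0 and 1.76 with vehicle, below the filter, and was not tested. The log2 fold change of colon over villi in the authors' deposited table, for vitamin D treated libraries, was -6.16.

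Slc30a4 encodes ZnT4, a vesicular transporter whose loss in mice gives the lethal milk phenotype. It had no call in any tissue in the main fit, which is unpaired. In crypts it ran over 13.3, 15.2 and 25.4 FPKM with vitamin D, against 15.7, 26.1 and 43.5 with vehicle, with 3 of 6 vitamin D libraries below every vehicle library. Its log2 fold change there was -0.72 ± 0.24 (limma adjusted p = 0.175), and it passed when replicate numbers were blocked (adjusted p = 0.0186) or vehicle replicate 4 was left out (adjusted p = 0.0227). In the authors' deposited table for crypts, which called 4.28% of genes, its log2 fold change was -0.79 and its adjusted p 0.0481. In villi the vehicle libraries spread over 12.7 to 64.6 FPKM and enclosed the vitamin D range of 20.7 to 38.9 (log2 -0.05 ± 0.35). In colon the values were 13.8 to 36.9 FPKM with vitamin D and 23.1 to 44.3 with vehicle (log2 -0.37 ± 0.21; limma adjusted p = 0.751). Slc30a7, which encodes the Golgi transporter ZnT7, had the smallest log2 fold changes of the tested exporters in crypts and colon, with 0.09 ± 0.09 in villi, 0.05 ± 0.11 in crypts and -0.04 ± 0.13 in colon and means of 5.35, 7.35 and 11.4 FPKM with vitamin D against 5.01, 7.08 and 11.9 with vehicle.

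Of the 3 importers 0 were called by limma in any tissue, in either direction. Over all genes tested 2.17%, 1.13% and 0.763% were called higher in villi, crypts and colon, and 0.299%, 0.335% and 0.0607% lower. Unadjusted p-values under 0.05 came from Slc39a4 in villi and from Slc39a4 and Slc39a5 in colon. The authors' deposited table called Slc39a4 in colon, where it called 1.64% of 15002 genes. The median importer log2 fold change was -0.09 in villi, -0.14 in crypts and -0.01 in colon.

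Slc39a4 encodes ZIP4, the apical importer that takes zinc from the gut lumen and whose loss in humans causes acrodermatitis enteropathica. In colon it ran over 200.1, 264 and 291 FPKM with vitamin D, against 130 at the lowest, 174 at the median and 223 at the highest with vehicle. Of 7 vitamin D libraries 6 lay above every vehicle library. The log2 fold change was 0.55 ± 0.13, a ratio of 1.47 (95% interval 1.21 to 1.78), and missed the threshold (limma adjusted p = 0.0825). It passed with the sex pattern of Xist and Ddx3y as a covariate (adjusted p = 0.0375), without vitamin D replicate 3 (0.0479) and without vehicle replicate 6 (0.0410), and the range over all 23 alternatives was 0.0375 to 0.209. The authors' deposited table gave 0.54 with an adjusted p of 0.00684. In villi the means were 189 ± 49.2 (SD, n = 7) with vitamin D and 143 ± 19.1 FPKM (n = 6) with vehicle, a log2 fold change of 0.38 ± 0.15 (limma adjusted p = 0.277), and vitamin D replicate 2 lay highest at 293 FPKM. In crypts they were 113 ± 27.6 FPKM with vitamin D and 102 ± 46.6 with vehicle (n = 6 each; log2 0.25 ± 0.29).

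Slc39a5 encodes ZIP5, an importer of the basolateral membrane. Its means were 104 ± 13.0 and 110 ± 9.88 FPKM in vitamin D and vehicle villi (log2 -0.09 ± 0.09). In crypts they were 100.4 ± 22.3 FPKM with vitamin D and 118 ± 23.2 with vehicle (log2 -0.24 ± 0.16). In colon the vitamin D libraries held 38.3 to 62.9 FPKM and the vehicle libraries 49.0 to 83.1, with 5 of 7 vitamin D libraries below every vehicle library (log2 -0.32 ± 0.13; limma adjusted p = 0.532). Slc39a1, which encodes ZIP1, a widely expressed importer, averaged 53.0, 52.2 and 81.8 FPKM with vitamin D in villi, crypts and colon, against 56.4, 57.4 and 82.3 with vehicle (log2 -0.11 ± 0.11, -0.14 ± 0.12 and -0.01 ± 0.07). Its 95% interval in colon bounds the ratio of vitamin D to vehicle at 1.10 from above.

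The crypt libraries differed in their enterocyte content. The summed FPKM of absorptive enterocyte markers ran over 8443 to 35357 in vitamin D crypts and over 7054 to 57128 in vehicle crypts. Vehicle replicate 6, at the top, lay inside the vehicle villus range of 40923 to 62504 and had the lowest Paneth cell sum of its group, 12153. It held the highest Slc39a1, Slc39a4 and Slc39a5 of its group at 72.8, 172 and 148 FPKM. Vehicle replicate 4, at the bottom, held the lowest Slc39a4 and Slc39a5 at 46.0 and 93.9 FPKM and the lowest Slc30a2 at 4.11. The part of enterocyte content in the crypt values was not tested.

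Both metallothioneins stood lower with vitamin D in villi, and Mt2 was called. In villi 1 of 2 was called lower, against 0.299% of all genes tested, and in crypts and colon 0 of 2 were called by limma, with an unadjusted p under 0.05 for Mt2 in crypts. Mt2 ran over 5.42, 19.0 and 41.6 FPKM in vitamin D villi, against 40.1, 73.4 and 147 in vehicle villi. Of the 7 vitamin D libraries 6 lay below every vehicle library, and replicate 2 at 41.6 FPKM lay just above the lowest of them. The means were 22.7 ± 12.8 FPKM with vitamin D (SD, n = 7) and 83.3 ± 42.6 with vehicle (n = 6), a ratio of 0.263 (95% interval 0.139 to 0.496; log2 -1.93 ± 0.43; limma adjusted p = 0.0263). The call was lost on leaving out vitamin D replicate 4 or 6 or vehicle replicate 1, 2 or 5, at most to an adjusted p of 0.0622, and in the plain-named libraries alone (log2 -2.04, adjusted p = 0.279). The authors' deposited table gave -1.88 with an adjusted p of 0.000343, in a table that called 3.60% of genes. In crypts Mt2 ran over 12.2, 67.1 and 197 FPKM with vitamin D and over 71.2, 147 and 206 with vehicle (log2 -1.23 ± 0.57; limma adjusted p = 0.327). The groups overlapped there, with 3 of 6 vitamin D libraries below every vehicle library.

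Mt1 ran over 87.9, 150 and 322 FPKM in vitamin D villi, against 208 at the lowest, 246 at the median and 442 at the highest in vehicle villi. Of 7 vitamin D libraries 5 lay below every vehicle library, and the log2 fold change was -0.87 ± 0.31 (limma adjusted p = 0.227; 0.0171 with replicate numbers blocked). In crypts the means were 348 ± 209 and 386 ± 87.8 FPKM with vitamin D and vehicle (log2 -0.30 ± 0.31). Mt1 and Mt2 are close paralogs, and the sources used here do not say how reads that match both were divided between them.

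Mt1 and Mt2 went together from library to library. Within each of the 6 groups Pearson's r was 0.86 to 0.99 over the 6 or 7 libraries, and Spearman's rho 0.83 to 1.00; exact permutation p-values of r, adjusted over 22 relations examined, were 0.0306 to 0.0713, and those of rho 0.0306 to 0.183. Without the 2 libraries farthest from the median of Mt1, r was 0.77 to 0.98. Their ratio is given as a description, since it was examined after the values were seen. Mt1 over Mt2 was 5.34 to 16.2 in vitamin D villi and 2.93 to 5.22 in vehicle villi, with no overlap. The ratio was 3.27 to 13.8 in vitamin D crypts and 2.30 to 4.11 in vehicle crypts, which overlapped. In colon it was 0.946 to 2.69 with vitamin D and 1.54 to 2.02 with vehicle, and the vitamin D libraries other than replicate 2 held 1.96 to 2.69.

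**Figure D3:**
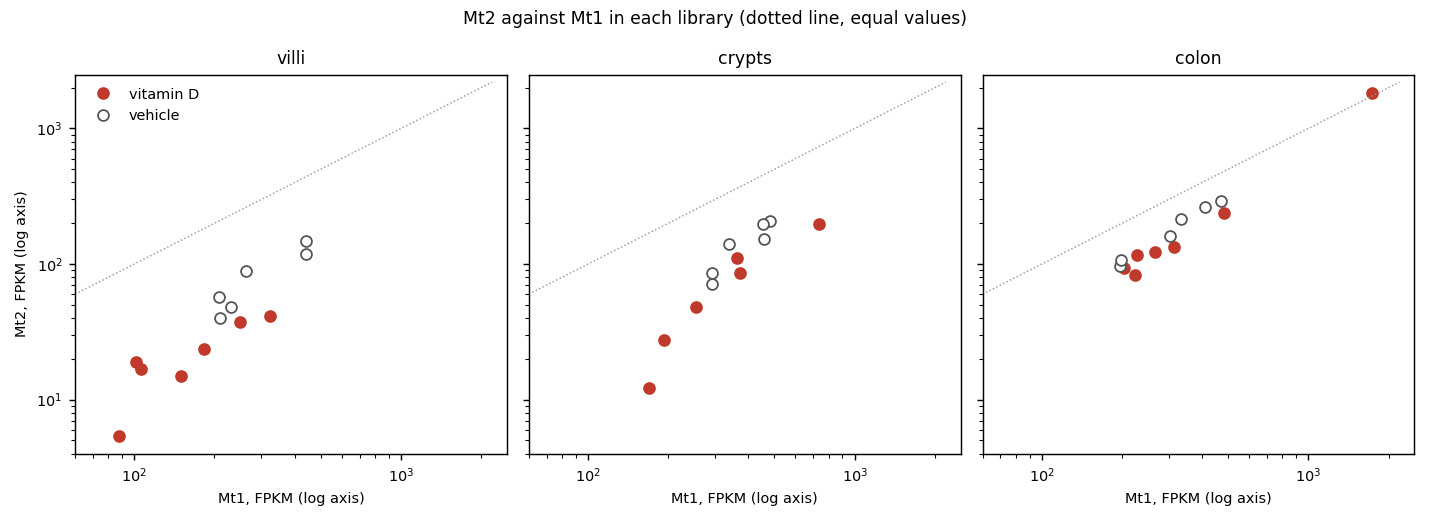
Mt2 against Mt1 in each library of villi, crypts and colon, both as FPKM on log axes, vitamin D filled and vehicle open; the dotted line marks equal values. In villi the vitamin D libraries lie farther below the line (Mt1 over Mt2 of 5.34 to 16.2) than the vehicle libraries (2.93 to 5.22), and vitamin D replicate 2 of colon lies above it at a ratio of 0.946.

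In colon the metallothionein comparison rested on the library labelled vitamin D replicate 2. That library held 1739 FPKM of Mt1 and 1838 of Mt2, whereas the other vitamin D colon libraries held 204 to 484 and 83.5 to 239, and the vehicle colon libraries 197 to 469 and 97.4 to 291. The authors' deposited table for colon gave log2 fold changes of 0.64 for Mt1 and -0.48 for Mt2 (adjusted p = 0.713 and 0.612). By limma, with vitamin D replicate 2 and all other libraries, the log2 fold changes were 0.24 ± 0.44 for Mt1 and 0.06 ± 0.61 for Mt2 (limma adjusted p = 0.929 and 0.989). Without it and vehicle replicate 5 they were -0.14 and -0.51 (limma adjusted p = 1.00 and 0.986), a selection made after seeing the data. The muscle and fibroblast markers that were high in vitamin D colon replicate 2 summed to at most 2.23 FPKM in villi. Vitamin D replicate 1 of colon had the next highest sum, 1326 FPKM, with 314 FPKM of Mt1 and 134 of Mt2, inside the range of the remaining libraries. The part of these cells in the metallothionein values was not tested.

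**Figure D4:**
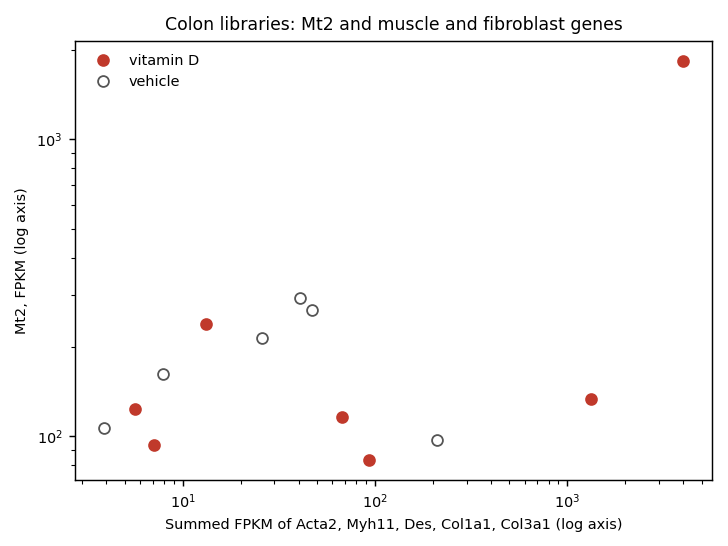
Mt2 (FPKM) against the summed FPKM of the muscle and fibroblast markers Acta2, Myh11, Des, Col1a1 and Col3a1 in each colon library, both on log axes, vitamin D filled and vehicle open. The vitamin D library at the upper right has 1838 FPKM of Mt2 and a marker sum of 4021, and the vitamin D library with a sum of 1326 has 134 FPKM of Mt2.

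Of a list of 9 glucocorticoid target genes 0 were called by limma in any tissue. Over all genes tested, 2.17%, 1.13% and 0.763% were called higher in villi, crypts and colon, and 0.299%, 0.335% and 0.0607% lower. Of the list 0 had an unadjusted p under 0.05 in villi, 3 in crypts and 4 in colon. Of all genes tested 1181 of 9706, 1639 of 10733 and 929 of 11540 did. Of the tested members of the list 7 of 8 in villi, 9 of 9 in crypts and 8 of 9 in colon had a negative log2 fold change, with medians of -0.35, -0.73 and -0.51. Over all genes tested 5122 of 9706, 5629 of 10733 and 5766 of 11540 were negative. In villi the summed FPKM of the glucocorticoid list was 90.1 to 414 with vitamin D and 81.9 to 906 with vehicle. The vehicle villus libraries with the highest sums, replicates 1 and 2 at 843 and 906 FPKM, also held the highest Mt2, at 118 and 147 FPKM. The remaining vehicle libraries of villi did not keep that order: villus replicate 5 had the lowest sum, 81.9, with 89.3 FPKM of Mt2, and villus replicate 3 had a sum of 337 with the lowest Mt2, 40.1. Colon vehicle replicate 3 had the highest sum of its group, 524, with the lowest Mt2, 97.4. In vehicle crypts replicates 1, 6 and 2 held the highest sums (582, 510 and 495) and the highest Mt2 (206, 153 and 198). Replicate 4 there had the lowest sum, 95.9, with 141. In vitamin D crypts replicates 5, 2 and 1 held the highest sums (306, 254 and 210) and the highest Mt2 (197, 85.6 and 111). In vitamin D villi replicates 1 and 2 did so (414 and 393, with 37.3 and 41.6). In vitamin D colon replicate 1 had the highest sum, 355, with 134, and replicate 2 had 282 with 1838. In crypts the sums were 87.1 to 306 FPKM with vitamin D and 95.9 to 582 with vehicle, and in colon 180 to 355 with vitamin D and 202 to 524 with vehicle. A list of 7 targets of NRF2, the factor of oxidative stress that also acts on metallothionein genes, was examined too. Of the list 5 were tested in villi, 5 in crypts and 6 in colon, and 0 were called higher by limma in any tissue. Over all genes tested 2.17%, 1.13% and 0.763% were called higher in villi, crypts and colon. Gclm in villi and Srxn1 in colon had an unadjusted p under 0.05 in that direction. Called lower were 0 in villi and 0 in crypts, against 0.299% and 0.335% of all genes tested, and 1 of 6 in colon, against 0.0607%. Gclc, a subunit of glutamate cysteine ligase, was the gene that fell in colon (log2 -0.45, limma adjusted p = 0.0403). It stood at -0.71 in villi and -0.60 in crypts, uncalled with unadjusted limma p-values of 0.0394 and 0.00934. The quinone reductase gene Nqo1 was uncalled at -0.39 in villi, -0.42 in crypts and -0.40 in colon (unadjusted p = 0.0467, 0.00280 and 0.00161). The part of glucocorticoid action in the Mt2 values was not tested.

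Of the 20 other genes of these families and of zinc sensing, 11 were tested in villi, 14 in crypts and 15 in colon. Called higher were 2, 3 and 2 of them, against 2.17%, 1.13% and 0.763% of all genes tested. By limma 0 were called lower, against 0.299%, 0.335% and 0.0607%, and 0 had an unadjusted p under 0.05 in that direction. The tested genes of this list had median log2 fold changes of 0.08, 0.04 and -0.02. Slc30a10, whose product is known mainly as a manganese exporter, rose by 1.53 ± 0.18 in villi, 2.19 ± 0.32 in crypts and 3.31 ± 0.48 in colon. Its means were 111, 62.0 and 86.3 FPKM with vitamin D, against 39.3, 15.0 and 11.5 with vehicle. Slc39a8, encoding ZIP8, an importer of manganese and zinc, rose by 1.11 ± 0.19, 1.56 ± 0.29 and 1.15 ± 0.18. Slc39a10, encoding the plasma membrane importer ZIP10, rose in crypts by 0.54 ± 0.12 (limma adjusted p = 0.0374), and stood at 0.50 ± 0.23 in colon (0.589). Slc30a10 and Slc39a8 thus rose in colon, where the log2 fold change of Slc30a1 was 0.32. Among those that did not pass, Slc30a9 had log2 fold changes of 0.28, 0.28 and 0.20, Slc39a9 one of 0.44 in colon, and Mtf1, which encodes the zinc sensor MTF-1, -0.19, -0.16 and -0.16. Gpr39, a zinc-sensing receptor, stood at -0.31 ± 0.15 in crypts (limma adjusted p = 0.367).

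The genes whose pattern over libraries was most like that of Slc30a1 were Ptprj, a receptor phosphatase (r = 0.93), Soat1, which esterifies cholesterol (0.91), Inpp5j, an inositol phosphatase (0.90), and Brpf3 (0.88). Likeness was Pearson's r over all 38 libraries of log2(FPKM + 0.5) centred on the mean of the tissue, among 8622 genes, and is a description, since these libraries share the treatment. For Mt2 they were Mt1 (0.93), Slc25a12 (0.72), Ppp1cc (0.69) and Mzt2 (0.67). Between Slc30a1 and Mt2 r was -0.50, which takes in the difference between vitamin D and vehicle libraries. Within the vitamin D groups of villi, crypts and colon it was 0.51, 0.59 and -0.78. Within the vehicle groups it was -0.15, -0.56 and -0.59. Exact permutation p-values of these, adjusted over the 22 relations, were 0.0861 to 0.756.

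Levels between tissues come from the authors' deposited comparisons of vitamin D treated libraries, in which 61.9% of genes passed for crypts over villi, 64.7% for colon over villi and 56.5% for colon over crypts. Over all genes these values were offset from the log2 ratios of mean FPKM by a median of -0.48, -0.68 and -0.08 in the same order, so each is given beside the log2 ratio of the mean FPKM in the vitamin D groups, and a value near its offset sets no order between tissues. Of colon over villi, Slc30a2 was lower in both (-6.16 in the authors' deposited table, -4.85 by FPKM), as were Slc30a5 (-1.81 and -1.11) and Slc39a5 (-1.78 and -1.07). Slc30a1 in colon over villi was -1.19 in the authors' deposited table and -0.48 by FPKM. Of crypts over villi, Slc30a2 was lower in both (-1.61 and -1.10), and so was Slc39a4 (-1.23 and -0.74). For Slc30a1, Slc30a5 and Slc39a5 in crypts over villi the authors' deposited table gave -0.62, -0.68 and -0.53, close to the offset, and the FPKM gave -0.13, -0.19 and -0.05. Slc39a4 was higher in colon than in crypts in both (1.11 and 1.18), and in colon over villi it was -0.25 in the authors' deposited table (adjusted p = 0.129) and 0.44 by FPKM. Mt2 was higher in crypts than in villi (1.34 and 1.80). In colon over villi the authors' deposited table gave Mt2 1.75, and the FPKM, with vitamin D colon replicate 2 included, gave 4.02. Mt1 passed in 0 of the 3 authors' deposited tissue tables.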

How the data were processed

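RNA-seq libraries of villi, crypts and colon epithelium were analysed from the authors' files. For villi, crypts and colon the authors deposited FPKM, with 1 column for each library, as the file headers show. Their deposited comparison tables, per the file headers, hold log2 fold changes, p-values with adjusted p-values, a test statistic (a score, not used here) and a mean normalised level (a signal). The tools named in the submitters' processing notes include DESeq2, kallisto 0.45.0 and DESeq 1.28.1, with mm9 as the build; no source used here says which of them made a given column. RefSeq promoters are of GRCm38.p6, so their coordinates are not those of the authors' build.

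The depth is an indirect estimate. Each FPKM was scaled by the authors' mean normalised level of the gene over its mean FPKM. For each library the size factor was then taken that made the most low values whole. By it 78.0% to 91.6% of values worth under 30 reads lay within 0.05 of a whole number, too few for a count model, which was not run. Genes with at least 1 FPKM in at least 6 libraries of a tissue entered limma 3.58.1 in R 4.3.3 (lmFit, then eBayes with its trend option) as log2(FPKM + 0.5), with vitamin D against vehicle as the contrast and no covariate, adjusted over all genes of the tissue at 0.05. Differences of response between tissues were contrasts of contrasts in 1 fit over 38 libraries. No test was run across the 3 FPKM tables' levels, because the authors' tissue log2 fold changes and the ratios of mean FPKM were offset by -0.48, -0.68 and -0.08. The procedure was tested on simulated data. The members, the lists and the naming rule were chosen with earlier results of these data known. By that rule all 10 members are named, Cyp24a1 and Atp2b1 as checks, of the other lists the called genes and a few of smallest p, and the 4 genes most like Slc30a1 and Mt2.

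Titles give vitamin D and vehicle libraries of a tissue the same replicate numbers. Deviations of same-numbered libraries from their group means correlated by 0.102 to 0.465 in villi, 0.119 to 0.545 in crypts and 0.057 to 0.572 in colon. Vitamin D replicates 2, 3, 4 and 6 of villi correlated best with the vehicle library of their own number. So did replicates 2, 3 and 4 of crypts and replicates 3, 4 and 6 of colon. In each tissue the other same-numbered vitamin D libraries correlated best with another number, so whether the numbers mark pairs was not settled. The main fits are unpaired, and the block by replicate number is an alternative. With that block Slc30a2 and Mt1 in villi and Slc30a4 in crypts were also called. The labels' sample names come in a plain style for 4 libraries of each group and in other styles for the rest. By Xist and Ddx3y, 24 libraries had the female and 14 the male pattern. Alternatives were the pseudocount, the filter, median-ratio scaling, the replicate block, name style, sex pattern, plain-named libraries alone and leaving out each library.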

Additional observations from a re-analysis of the deposited data

Results flagged for a closer look

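Of 60 groups of a gene's values, 3 had a library far from the rest by Dixon's criterion, and chance gives about 1 in 20. Slc39a4 reached 293 FPKM in vitamin D villus replicate 2, whereas the other 6 libraries of that group held 149 to 199. Mt1 reached 1739 FPKM in vitamin D colon replicate 2, whereas the other libraries of the group held 204 to 484. Mt2 reached 1838 FPKM in the same library, against 83.5 to 239 in the others. Genes that stood highest there relative to every other colon library, chosen after their values were seen, included the chemokine genes Ccl2 (27.0 FPKM, against at most 0.679 elsewhere in colon), Cxcl14 (70.6 against 5.20) and Ccl7 (18.9 against 1.58), and Lcn2 (45.7 against 5.33).

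The response of Slc30a1 differed between tissues by a test of the difference itself. The log2 fold change was higher in villi than in colon by 1.05 (limma adjusted p = 0.0144) and higher in crypts than in colon by 1.06 (limma adjusted p = 0.0293).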

How the results depend on the processing

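The rises of Slc30a1 in villi and crypts passed under all 22 and 21 alternatives (adjusted p up to 0.00931 and 0.00428), and that of Slc30a5 in villi in 21 of 22. Of the 10 genes, the number called higher in villi was 2, 3 (Slc30a2 added) with the replicate number as a block by title or by column name or with name style as a covariate, and 1 in the plain-named libraries alone. The number called lower in villi was 1; it was 0 with no filter and in the plain-named libraries alone, 2 (Mt1 and Mt2) with the replicate number as a block by title or by column name, and 0 to 1 without 1 library. The number called lower in crypts was 0, 1 (Slc30a4) with either block, and 0 to 1 without 1 library. The number called higher in colon was 0, 1 (Slc39a4) with the sex pattern as a covariate, and 0 to 1 without 1 library. The number whose response differed was 1 for villi and colon and 1 for crypts and colon; both were 0 in the plain-named libraries alone, and that for crypts and colon was 0 to 1 without 1 library. In colon the block changed no call among the 10. The causes were not tested.

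Signs turned for values that were not called. Slc30a4 in villi was 0.011 with the block by column name, 0.026 with name style as a covariate and -0.26 to 0.20 without 1 library. In colon, Mt1 was -0.14 and Mt2 -0.51 without the 2 libraries that stand apart, and Mt2 -0.0023 with the block by column name. Slc39a1 in colon was 0.0015 with median-ratio scaling, 0.024 with the block by column name and 0.052 in the plain-named libraries alone. The difference of Slc30a1 between villi and crypts was 0.056 with the replicate block, 0.16 in the plain-named libraries alone and -0.12 to 0.076 without 1 library. Without 1 library the colon ranges were -0.14 to 0.37 for Mt1, -0.49 to 0.25 for Mt2, -0.11 to 0.023 for Slc30a7 and -0.036 to 0.024 for Slc39a1, and Slc30a7 in crypts was -0.020 to 0.092.

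Over all genes the number called in villi was 240, and 92 in the plain-named libraries alone. In crypts it was 157, 444 with the replicate block, 391 with name style, 272 with sex pattern, 68 in the plain-named libraries alone and 105 to 1059 without 1 library, highest without vehicle replicate 4. In colon it was 95, 147 with the replicate block, and 66 to 141 without 1 library. Slc30a2 in colon, at most 1.83 FPKM, lay below the filter and has no result there.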

Other observations

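Vehicle replicates 1 and 2 held the highest Mt2 of the vehicle group in all 3 tissues. The values were 118 and 147 FPKM in villi, 206 and 198 in crypts, and 266 and 291 in colon. The same replicate numbers held the highest Slc30a4 of the vehicle libraries in villi (59.3 and 64.6 FPKM, against 12.7 to 24.9 in the other 4) and in crypts (43.5 and 42.7, against 15.7 to 27.3). No source used here says whether these libraries come from the same mice.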
